A study of Mus musculus with 6 samples.

Results

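The translation initiation factor genes were examined in a conditionally immortalized mouse podocyte line (MPCs) exposed to high glucose with and without fibroblast growth factor 1 (FGF1). Loci were taken from the deposited expression table where a gene name began with Eif1 to Eif6, leaving out the eIF2α kinases (Eif2ak) and names marked as pseudogenes, and where the mean over the libraries was at least 1 FPKM (fragments scaled to transcript length and to the total of mapped fragments). This gave 49 of 24469 loci, carrying 48 gene names since Eif2s2 had 2 loci. Eif2s3y and Eif2c5 matched by name but lay below 1 FPKM. No member was at 0 in any library.

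MPCs proliferate with interferon gamma at a permissive temperature and were differentiated without it for 10 days. All cells were serum-starved for 12 h and then kept in 25 mM glucose for 12 h. The HG group received no growth factor, while the other groups were pretreated for 1 h with 100 ng/mL of recombinant wild-type FGF1 (rFGF1WT) or of rFGF1ΔHBS, a mutant altered in its heparin-binding site. Each of the 3 groups had 2 libraries of poly(A) RNA from this single line. No library without high glucose was compared, so the levels below describe FGF1 on top of high glucose and not the effect of glucose. In bulk RNA, fewer cells making a transcript and less transcript per cell cannot be told apart.

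Translation initiation is the step at which the small ribosomal subunit, carrying the initiator tRNA, is placed on the start codon of an mRNA. eIF2 brings the initiator tRNA and is recharged by eIF2B, eIF1 and eIF1A keep the scanning subunit open, and the large eIF3 complex ties the subunit to the mRNA. The eIF4 factors bind and unwind the capped end of the mRNA, and eIF5 and eIF5B act at subunit joining. The pathway is a major target of growth factor signaling through mTOR.

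The cells showed Cd2ap and Actn4 at mean levels of 60.7 and 96.6 FPKM and the podocyte surface protein Podxl at 16.0 FPKM, whereas the defining podocyte genes Wt1 and Ptpro were at 0.0376 FPKM or less, Nphs1 was at 0.781 FPKM and Tcf21 was not listed. Of the other marker lists, all 4 endothelial and all 3 leukocyte loci that could be read had means below 1 FPKM. Cd68 could not be read because its locus was merged with Eif4a1. The 3 tubule loci summed to 61.6 to 73.4 FPKM in HG and to 40.5 to 49.7 FPKM across both FGF1 groups, led by Lrp2 and Aqp1. The 3 mesangial loci, nearly all Pdgfrb, summed to 32.0 to 32.8 FPKM in HG and 26.2 to 27.6 FPKM with FGF1. The 8 podocyte loci reported here summed to 163.1 and 169.6 FPKM in HG and to 185.0 FPKM or more in all 4 FGF1 libraries, a sum carried by Actn4 and Cd2ap. Other podocyte genes went the opposite way, with Synpo, an actin-associated protein of the foot process, at 9.58 and 10.2 FPKM in HG and 4.01 to 6.83 FPKM with FGF1, and with Podxl at 16.7 and 17.6 FPKM in HG and 14.8 to 15.8 FPKM with FGF1. Wt1 was also lower in all 4 FGF1 libraries, at levels near 0. The part of these shifts in the results below was not tested. Across all 10562 loci at 1 FPKM or more, correlations across genes between libraries of 1 group (0.916 to 0.923) fell inside the range between groups (0.895 to 0.924).

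The initiation factors were abundant transcripts. Their median level over the libraries was 20.4 FPKM, against 7.91 FPKM for all loci tested, and together they made up 1.23% to 1.35% of the summed FPKM of each library. Levels ranged from 2.08 FPKM for Eif2b3, a subunit of the catalytic arm of eIF2B, to 253.6 FPKM for the eIF3 subunit Eif3h, and 8 loci reached 100 FPKM. The 13 eIF3 loci alone held 49.7% of the members' summed FPKM and the 5 loci of eIF4A, eIF4B and eIF4H a further 18.1%. At the low end, the 3 cap-binding eIF4E loci together held 1.06%.

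**Figure D1:**
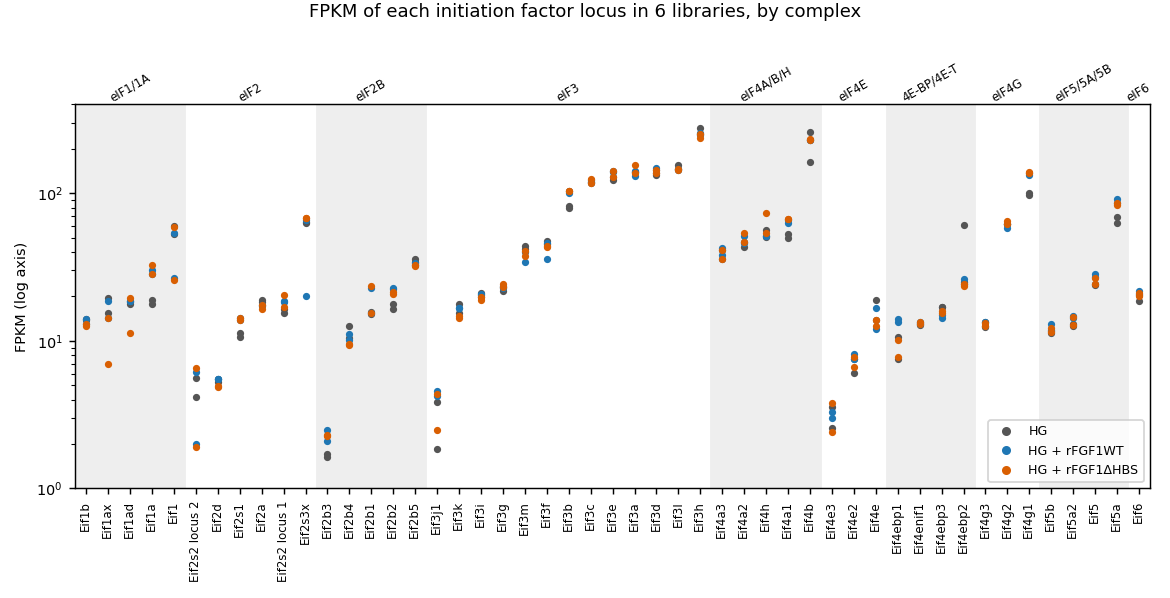
FPKM (log axis) of each of the 49 initiation factor loci in 6 libraries, ordered by mean level within each complex and colored by group. The eIF3 loci run from 3.56 FPKM (Eif3j1) to 253.6 FPKM (Eif3h), and at Eif2s3x, Eif1 and Eif4ebp2 single libraries stand apart from the rest.

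Pretreatment with rFGF1WT raised 6 of the 49 loci over HG and lowered none. These were Eif1a, Eif2b2, Eif3b, Eif4a1, Eif4g1 and Eif5a, one from each of 6 complexes. The calls are at an adjusted p under 0.05 in limma's moderated test on log2(FPKM + 1), with Benjamini-Hochberg adjustment over all loci tested. The 6 members are 12.2%, beside 6.19% of all loci called in this comparison (3.26% higher and 2.94% lower). Pretreatment with rFGF1ΔHBS raised 4 members, namely Eif1a, Eif3b, Eif4a1 and Eif4g1, which is 8.16% beside 6.26% of all loci (3.37% higher and 2.89% lower). The HG libraries are shared by these comparisons, and the values are therefore given side by side only. None of the 6 rFGF1WT calls held when any 1 of the 6 libraries was left out or only the 4 libraries compared were fitted. With rFGF1ΔHBS only the call of Eif4g1 held, and only without the first rFGF1WT library. Eif4ebp2 and Eif2s3x, each with a library standing apart, passed newly in single fits of this kind. The loss was general, since the calls over all loci fell from 654 to between 134 and 195 with rFGF1WT and from 661 to between 118 and 198 with rFGF1ΔHBS when 1 library was left out, and to 170 and 189 with 4 libraries. The p-values measure the spread between 2 libraries a group, and the sources used here do not say for these libraries whether they came from separate cultures.

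The changes were small. No member reached a 2-fold change with either protein, a limit that 1.01% of all loci passed with rFGF1WT and 0.899% with rFGF1ΔHBS. The median difference of the members on the log2(FPKM + 1) scale was 0.04 with rFGF1WT and 0.03 with rFGF1ΔHBS, where all loci had medians of -0.04 in both. With rFGF1WT, 19 members had both libraries above both HG libraries and 5 had both below, while 24.1% and 34.1% of all loci did so. With rFGF1ΔHBS the counts were 11 above and 15 below, beside 24.4% and 32.9% of all loci.

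The 2 proteins were also compared directly. No member differed between rFGF1ΔHBS and rFGF1WT by limma at an adjusted p under 0.05, where 0.549% of all loci did. At an unadjusted p under 0.05 there was 1 member (2.04%), Eif4ebp1, beside 4.87% of all loci.

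**Figure D2:**
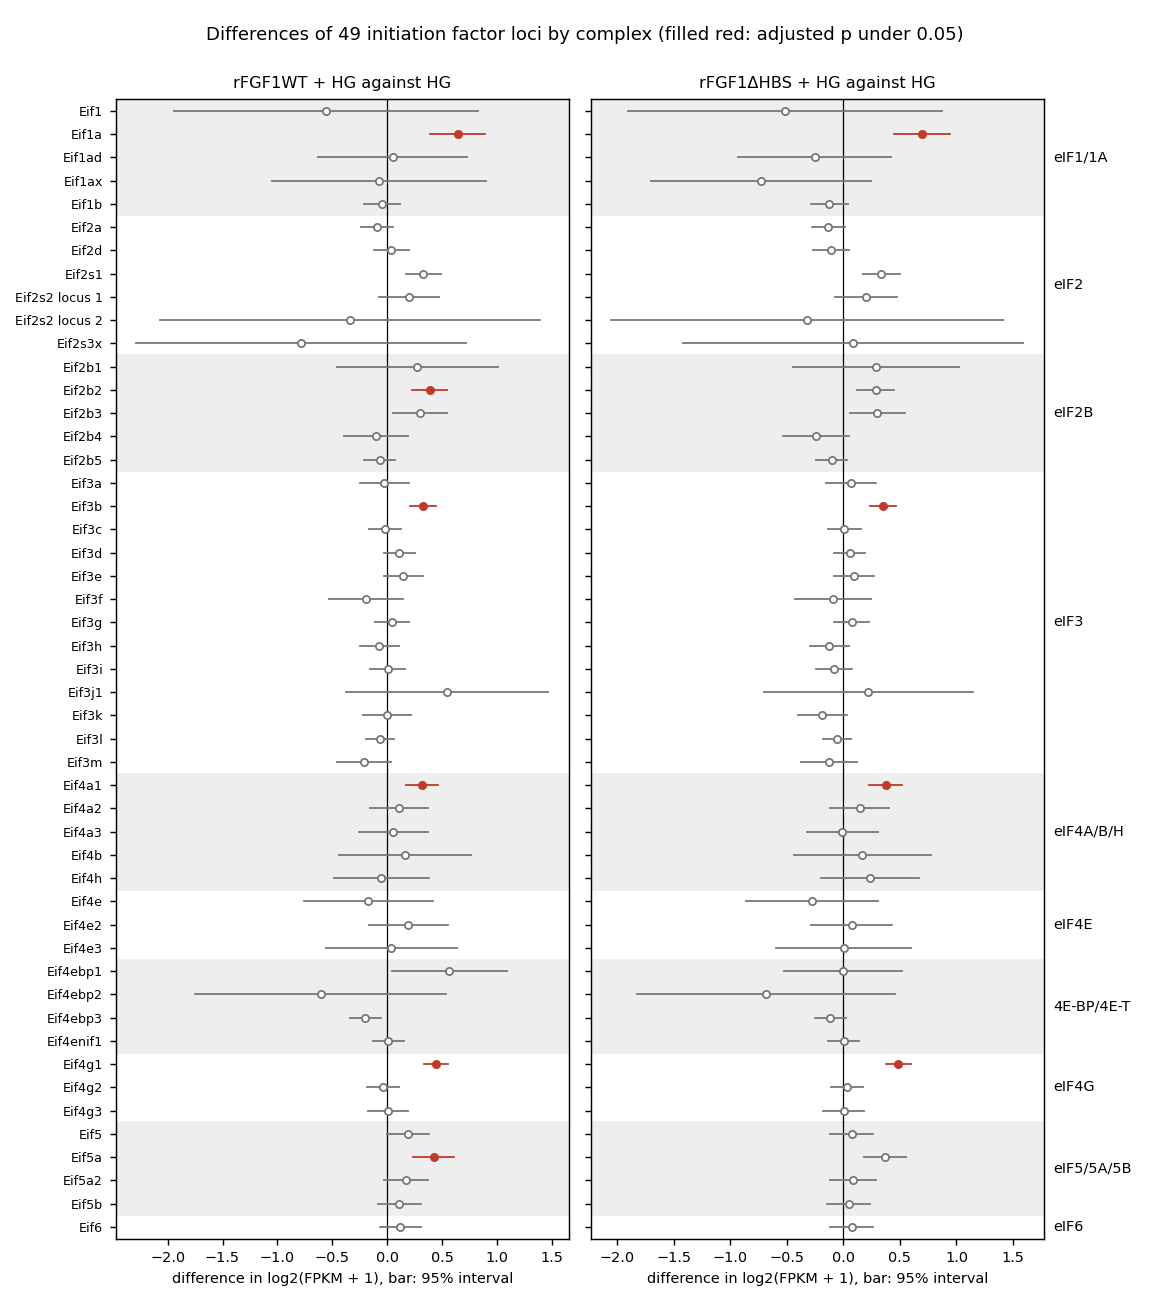
Difference from HG in log2(FPKM + 1) with its 95% interval for each of the 49 loci, grouped by complex, with rFGF1WT on the left and rFGF1ΔHBS on the right. Filled red points are the 6 and 4 loci with an adjusted p under 0.05, all to the right of 0. The widest intervals belong to loci whose replicate libraries disagree.

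Eif4g1 encodes the scaffold that joins the cap-binding protein, the helicase eIF4A and eIF3. It was named in the study's own work on these samples as a proliferation gene, so its direction is not independent evidence here. The paper reports weaker proliferative signals with rFGF1ΔHBS than with rFGF1WT, and Eif4g1 was among the genes it assayed by real-time PCR. Eif4g1 was not lower with rFGF1ΔHBS than with rFGF1WT in these FPKM values. Eif4g1 read 100.4 and 97.8 FPKM in HG, 133.4 and 136.9 FPKM with rFGF1WT, and 138.2 and 140.3 FPKM with rFGF1ΔHBS. Every FGF1 library lay above both HG libraries, and the 2 libraries of each group were within 1.03 times of each other. Eif4g1 rose by 0.44 ± 0.04 (SE, n = 2 libraries a group, adjusted p = 0.0168 by limma) with rFGF1WT, which is 1.36 times the mean FPKM of HG. With rFGF1ΔHBS it rose by 0.49 ± 0.04 (SE, n = 2, adjusted p = 0.0158 by limma), or 1.41 times. The difference between rFGF1ΔHBS and rFGF1WT was 0.04 with a 95% interval of -0.07 to 0.15 (adjusted p = 0.910 by limma), and both rFGF1ΔHBS libraries were the higher ones.

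The other scaffold genes gave no call. Eif4g2, which lacks the cap-binding arm and serves cap-independent initiation, read 61.8 and 62.0 FPKM in HG, 58.6 and 62.0 FPKM with rFGF1WT and 61.7 and 65.1 FPKM with rFGF1ΔHBS. Eif4g3, the close relative of Eif4g1, read 12.4 and 13.4 FPKM in HG, 12.6 and 13.3 FPKM with rFGF1WT and 12.6 and 13.2 FPKM with rFGF1ΔHBS. At both genes the groups overlapped, with 95% intervals of -0.18 to 0.19 for either protein at Eif4g3. Summed over its 3 loci, eIF4G stood at 173.0 to 174.8 FPKM in HG and 204.6 to 215.9 FPKM with FGF1, with Eif4g1 the called locus.

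Eif4g1 lies at chr16:20668313-20692884 on the plus strand (GRCm38, GENCODE M21), and its longest matched transcript has 32 exons. The study's primers for Eif4g1 are shown because they place the amplified stretch. The forward one lies in exon 18 (chr16:20683863-20683882) and the reverse one in exon 19 (chr16:20684090-20684110), giving a 143-base product in 9 of the 25 annotated transcripts.
Eif4g1 forward primer: aagacctcatctcgcatccg
Eif4g1 reverse primer: tgttctcggtgctcttccatc

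Promoter windows from 250 bases before to 50 bases from the transcription start (RefSeq, GRCm38.p6) were searched on both strands for the E-box CACGTG, the letters bound by the Myc and Tfe families among others, and for CCGGAAGT, a form of the ETS motif. The motifs do not overlap each other. Windows were found for 38 of the 48 member genes. CACGTG was present at 10 of these 38 genes (26.3%) and at 8.09% of all 27025 genes with a window. Among the called genes it was present at 3 of 5 (Eif4a1, Eif4g1 and Eif5a), and Eif1a had no entry. CCGGAAGT was present at 7 of 38 (18.4%) against 4.31% of all genes, Eif2b2 and Eif5a among them. A gene with several starts has several windows, as Eif5a has, and so more chances of a match. The 27025 genes were not filtered by expression, whereas the members had a mean of at least 1 FPKM. The share among expressed genes was not computed. These matches are letters in a window and do not show a bound factor. The windows of the called genes that hold the E-box are shown, with the motif in capitals, for Eif4g1 (chr16:20672477-20672776, plus strand), Eif4a1 (chr11:69672374-69672673, minus strand) and 1 of the windows of Eif5a (chr11:69921337-69921636, minus strand).
Eif4g1: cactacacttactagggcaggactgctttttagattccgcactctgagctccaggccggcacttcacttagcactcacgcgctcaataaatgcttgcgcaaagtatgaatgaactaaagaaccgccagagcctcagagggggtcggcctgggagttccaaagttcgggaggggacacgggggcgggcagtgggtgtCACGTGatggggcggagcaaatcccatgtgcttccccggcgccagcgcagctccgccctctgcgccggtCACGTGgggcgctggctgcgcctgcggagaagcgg
Eif4a1: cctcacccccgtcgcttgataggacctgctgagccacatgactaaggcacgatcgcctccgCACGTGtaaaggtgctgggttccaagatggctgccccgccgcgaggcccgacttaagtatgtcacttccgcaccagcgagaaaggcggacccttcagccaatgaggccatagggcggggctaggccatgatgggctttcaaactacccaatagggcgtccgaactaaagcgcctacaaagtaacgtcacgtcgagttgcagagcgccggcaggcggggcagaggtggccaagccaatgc
Eif5a: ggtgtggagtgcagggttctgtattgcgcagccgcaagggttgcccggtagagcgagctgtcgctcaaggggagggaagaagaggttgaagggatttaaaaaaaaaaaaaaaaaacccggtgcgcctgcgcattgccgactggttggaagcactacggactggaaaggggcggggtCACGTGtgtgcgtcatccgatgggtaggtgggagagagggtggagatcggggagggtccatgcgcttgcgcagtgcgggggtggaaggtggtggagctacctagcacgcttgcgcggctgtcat
The Eif4g1 window lies inside the gene's GENCODE span, which begins at chr16:20668313, and no other window of Eif4g1 was searched. In it an E-box begins 54 bases before that window's start and another at base 16 from that start. In the Eif4a1 window the E-box begins 189 bases before the start, and in the Eif5a window 74 bases before.

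Eif4a1 (chr11:69666936-69672423, minus strand) encodes the main RNA helicase that unwinds the leader of an mRNA. Its locus was assembled together with Cd68, a macrophage gene, so the value covers both. It read 53.1 and 50.1 FPKM in HG, 66.3 and 63.1 FPKM with rFGF1WT, and 67.1 and 67.3 FPKM with rFGF1ΔHBS, with no overlap between HG and either protein. The rise was 0.32 ± 0.05 (SE, n = 2, adjusted p = 0.0496 by limma) with rFGF1WT and 0.37 ± 0.05 (SE, n = 2, adjusted p = 0.0363 by limma) with rFGF1ΔHBS. Of all 75-base words of the Eif4a1 transcript, 62.9% also occur in its processed copy Eif4a-ps4. That copy was listed at 0 and 13.6 FPKM in HG, at 26.0 and 0 FPKM with rFGF1WT and at 0 in both rFGF1ΔHBS libraries. With the copy added, Eif4a1 differed from HG by 0.39 with rFGF1WT (adjusted p = 0.338 by limma) and by 0.20 with rFGF1ΔHBS (adjusted p = 0.591 by limma). Neither call held after the sum, in which the replicates of HG and of rFGF1WT lay further apart and which takes no account of the loci's lengths.

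Among the other eIF4A-class members none was called. Eif4a2, the second cytoplasmic helicase, differed from HG by 0.11 ± 0.10 and 0.15 ± 0.10 (SE, n = 2) with rFGF1WT and rFGF1ΔHBS. Eif4a3, which belongs to the exon junction complex, differed by 0.06 ± 0.12 and -0.01 ± 0.12. Eif4b, a cofactor of the helicase, was the second most abundant member at 224.2 FPKM but read 258.4 and 163.6 FPKM within HG, a spread that covered every FGF1 library (228.6 to 233.9 FPKM). Eif4h, a related cofactor, lay between 50.2 and 73.3 FPKM in all libraries.

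The cap-binding eIF4E genes were not called with either protein. Eif4e read 13.8 and 18.9 FPKM in HG, 16.7 and 12.1 FPKM with rFGF1WT, and 12.6 and 13.7 FPKM with rFGF1ΔHBS. Its replicates spread as widely as its groups. Eif4e2, a weaker cap binder linked to repression, and Eif4e3, whose locus was merged with Foxp1, differed from HG by 0.01 to 0.19.

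The 4E-BP proteins hold eIF4E away from eIF4G until mTOR phosphorylates them. Eif4ebp1 read 7.54 and 10.6 FPKM in HG, 13.4 and 14.0 FPKM with rFGF1WT, and 7.82 and 10.2 FPKM with rFGF1ΔHBS. It was the member for which the 2 proteins lay furthest apart relative to error, with both rFGF1WT libraries above the other 4. The difference of rFGF1ΔHBS from rFGF1WT was -0.57 ± 0.20 (SE, n = 2), with an unadjusted p of 0.0388 and an adjusted p of 0.905 by limma, so it did not pass. Against HG, Eif4ebp1 differed by 0.57 ± 0.20 with rFGF1WT (adjusted p = 0.179 by limma) and by 0.00 ± 0.20 with rFGF1ΔHBS.

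Eif4ebp2, the other main 4E-BP, read 60.6 and 25.0 FPKM in HG, where the libraries disagreed 2.42 times, and 23.5 to 26.4 FPKM in the FGF1 libraries. Only the first HG library stood apart. Its difference from HG was -0.61 ± 0.43 with rFGF1WT and -0.68 ± 0.43 with rFGF1ΔHBS. Without that library the difference was 0.01 and -0.06, and without the second HG library it was -1.23 and -1.31 with adjusted p of 0.0314 and 0.0316 by limma. Eif4ebp3, merged with Ankhd1, read 17.0 FPKM in both HG libraries, 15.0 and 14.4 FPKM with rFGF1WT and 15.9 and 15.4 FPKM with rFGF1ΔHBS, below HG in all 4 and not called (adjusted p = 0.114 and 0.279 by limma). Eif4enif1, the transporter that carries eIF4E into the nucleus, read 12.9 to 13.3 FPKM in all 6 libraries.

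Eif3b encodes the subunit around which the core of eIF3 is built and which contacts the 40S subunit. It read 82.0 and 80.0 FPKM in HG, 100.0 and 103.6 FPKM with rFGF1WT, and 102.9 and 104.4 FPKM with rFGF1ΔHBS. All 4 FGF1 libraries lay above HG. It rose by 0.33 ± 0.04 (SE, n = 2, adjusted p = 0.0308 by limma) with rFGF1WT and by 0.35 ± 0.04 (SE, n = 2, adjusted p = 0.0269 by limma) with rFGF1ΔHBS, and no 75-base word of its transcript is shared with another gene.

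The other 12 eIF3 subunits gave no call, and apart from Eif3j1 their differences from HG lay between -0.21 and 0.15 with either protein. The summed FPKM of eIF3 was 1147 to 1195 in HG and 1178 to 1189 with FGF1, inside the HG range. Eif3a, the scaffold of the complex, read 138.4 and 138.8 FPKM in HG, 130.4 and 142.3 FPKM with rFGF1WT and 154.7 and 136.6 FPKM with rFGF1ΔHBS. Eif3c, its partner, read 123.2 and 118.3 FPKM in HG and 117.5 to 125.8 FPKM with FGF1. Both overlapped HG. Eif3d, a subunit with its own cap-binding activity, and Eif3e lay above HG in both rFGF1WT libraries, by 0.11 ± 0.05 and 0.15 ± 0.07 (SE, n = 2), and overlapped HG with rFGF1ΔHBS. Eif3l and Eif3m had all 4 FGF1 libraries below HG, with differences of -0.06 and -0.21 with rFGF1WT and of -0.05 and -0.12 with rFGF1ΔHBS. Eif3f, Eif3h, Eif3i and Eif3k had both libraries below HG with rFGF1ΔHBS and overlapped HG with rFGF1WT, the largest difference being -0.19 at Eif3k. In all, 2 of the 13 eIF3 loci lay below HG without overlap with rFGF1WT and 6 with rFGF1ΔHBS, beside 34.1% and 32.9% of all loci. Above HG without overlap were 4 and 2, beside 24.1% and 24.4%. The core subunits Eif3g and Eif3i stood at 23.2 and 20.1 FPKM, far below Eif3a, Eif3c and Eif3b. Eif3j1, the loosely held subunit, was the lowest at 3.56 FPKM, and 51.0% of its words occur in other genes, mainly Eif3j2.

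Eif1a was the member with the largest change among those called. It encodes eIF1A, which with eIF1 keeps the scanning ribosome open until the start codon is found, and lies at chr18:46597701-46616456 (plus strand). It read 18.9 and 17.9 FPKM in HG, 30.4 and 28.2 FPKM with rFGF1WT, and 28.3 and 32.7 FPKM with rFGF1ΔHBS. Every FGF1 library was above both HG libraries by a wide margin. The rise was 0.64 ± 0.09 (SE, n = 2, adjusted p = 0.0369 by limma), or 1.59 times, with rFGF1WT and 0.69 ± 0.09 (SE, n = 2, adjusted p = 0.0316 by limma), or 1.65 times, with rFGF1ΔHBS. Eif1ax, the X-linked gene for nearly the same protein, went without a call and read 15.3 and 19.4 FPKM in HG, 18.7 and 14.3 FPKM with rFGF1WT and 6.98 and 14.3 FPKM with rFGF1ΔHBS. Both rFGF1ΔHBS libraries of Eif1ax lay below HG but disagreed 2.05 times. The transcripts of Eif1a and Eif1ax share no 75-base word, and 1.68% of the words of Eif1a occur in other genes.

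Eif1 itself could not be placed against HG. It read 59.8 and 53.3 FPKM in HG, 26.8 and 53.8 FPKM with rFGF1WT, and 59.0 and 26.0 FPKM with rFGF1ΔHBS. In both FGF1 groups 1 library was near HG and the other near 26 FPKM. Of its 75-base words, 25.6% occur in 14 other genes, and the part of these in the split was not tested. Eif1b, its relative, was steady at 12.6 to 14.2 FPKM, and Eif1ad, an eIF1A-domain gene, at 17.7 to 19.5 FPKM but for 1 rFGF1ΔHBS library at 11.4 FPKM.

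In eIF2, the carrier of the initiator tRNA, no locus was called. Eif2s1 encodes the α subunit, the target of the stress kinases. It read 11.3 and 10.6 FPKM in HG, 13.8 and 14.2 FPKM with rFGF1WT, and 14.3 and 13.8 FPKM with rFGF1ΔHBS, so all FGF1 libraries were above HG. Its differences of 0.33 ± 0.06 and 0.34 ± 0.06 (SE, n = 2) had adjusted p of 0.0597 and 0.0561 by limma and missed the threshold narrowly. The first locus of Eif2s2, the β subunit, was also above HG in every FGF1 library, by 0.20 ± 0.10 with each protein (adjusted p = 0.316 and 0.319 by limma). The second, unplaced Eif2s2 locus was low, at 1.91 to 6.51 FPKM, and its replicates disagreed up to 3.40 times.

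Eif2s3x encodes the γ subunit that holds the tRNA. It read 63.3 and 64.3 FPKM in HG, 65.7 and 20.3 FPKM with rFGF1WT, and 67.6 and 68.2 FPKM with rFGF1ΔHBS, so that the second rFGF1WT library alone stood apart. Its copy Gm2223, which holds 35.7% of its 75-base words, was listed at 31.1 and 37.3 FPKM in HG, 34.3 and 0 FPKM with rFGF1WT, and 2.83 and 0 FPKM with rFGF1ΔHBS. The sum of both loci was 94.5 and 101.6 FPKM in HG, 100.0 and 20.3 FPKM with rFGF1WT, and 70.4 and 68.2 FPKM with rFGF1ΔHBS. The same rFGF1WT library stayed apart after the sum. Both rFGF1ΔHBS libraries lay below both HG libraries in the sum, whereas at Eif2s3x alone they lay above them. Without the first rFGF1WT library, Eif2s3x differed by -1.61 from HG (adjusted p = 0.0121 by limma) and by 1.70 between the proteins (adjusted p = 0.0147 by limma), and without the second by 0.04 and 0.05. Eif2a and Eif2d, which can deliver tRNA in place of eIF2, lay within -0.13 to 0.04 of HG.

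**Figure D3:**
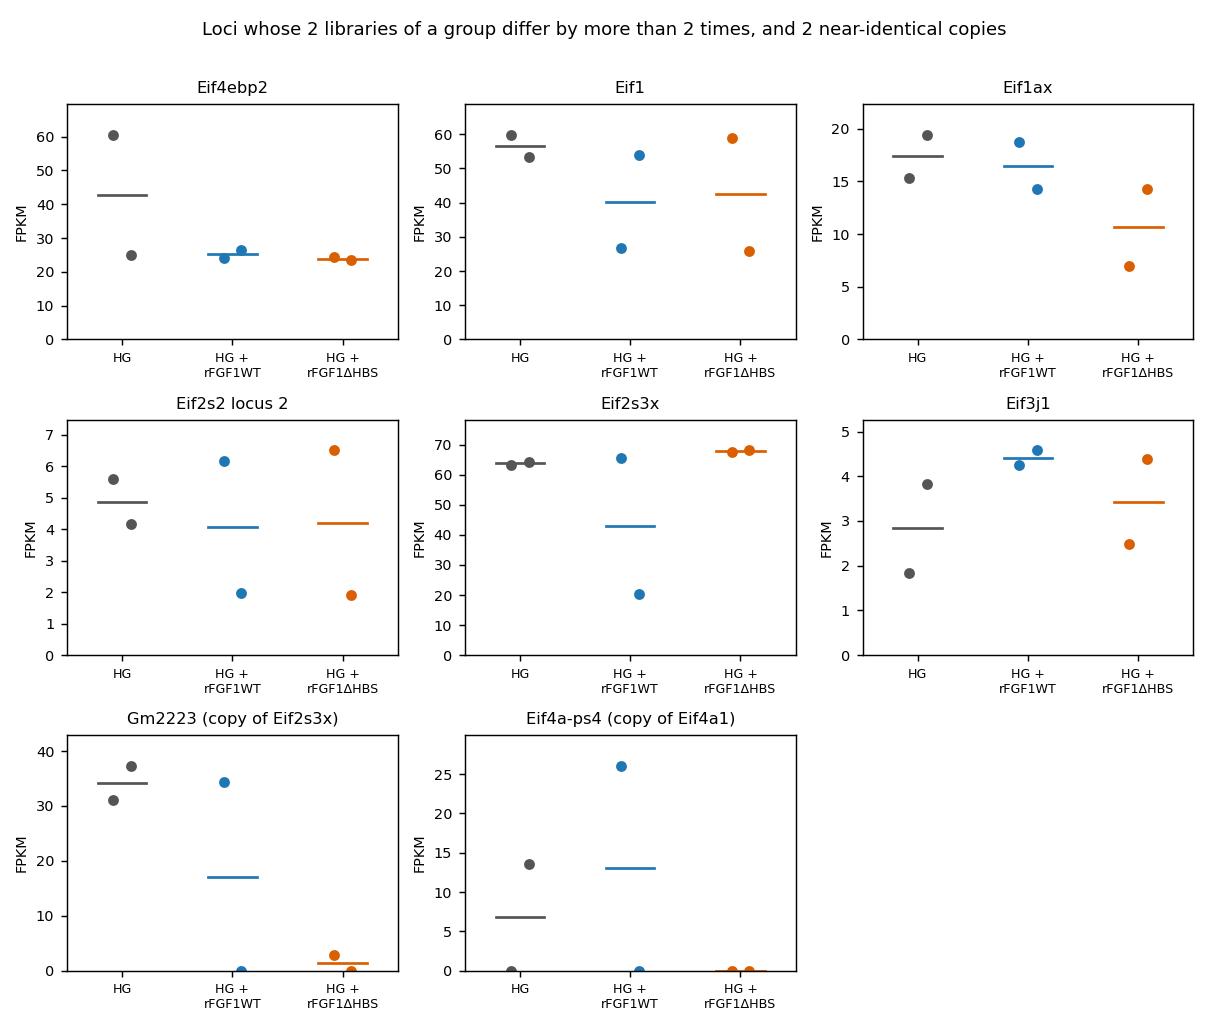
FPKM by library (points) and group mean (lines) for the 6 members whose replicates differ by more than 2 times in some group, and for the copies Gm2223 and Eif4a-ps4. Eif2s3x is low in 1 rFGF1WT library (20.3 FPKM), Eif4ebp2 is high in 1 HG library (60.6 FPKM), and Eif1 splits within both FGF1 groups.

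Libraries of a group disagreed across the whole table as well. In 10 of 49 members (20.4%) replicates differed by more than 1.5 times in some group, compared with 25.0% of all loci tested.

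eIF2B exchanges the guanine nucleotide of eIF2 and is blocked when the α subunit is phosphorylated. Eif2b2, which encodes the β subunit of its regulatory core (chr12:85219481-85226628, plus strand), read 17.8 and 16.4 FPKM in HG, 22.4 and 22.8 FPKM with rFGF1WT, and 20.7 and 21.3 FPKM with rFGF1ΔHBS. Both proteins placed it above HG without overlap. It rose by 0.39 ± 0.06 (SE, n = 2, adjusted p = 0.0441 by limma) with rFGF1WT and differed by 0.29 ± 0.06 (adjusted p = 0.0750 by limma) with rFGF1ΔHBS. The difference between the proteins was -0.10 with a 95% interval of -0.26 to 0.06, so a loss of the response with rFGF1ΔHBS was not shown. Eif2b3 lay above HG in all 4 FGF1 libraries at 2.09 to 2.47 FPKM, from 1.62 and 1.71 FPKM, and was not called (adjusted p = 0.149 and 0.144 by limma). Eif2b5, the catalytic subunit and the most abundant of the 5, read 35.9 and 34.1 FPKM in HG, 33.9 and 32.7 FPKM with rFGF1WT, and 32.3 and 32.6 FPKM with rFGF1ΔHBS, lower by 0.07 ± 0.05 and 0.10 ± 0.05 without a call. Eif2b1 and Eif2b4 likewise gave no call.

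In the eIF5 group, Eif5, Eif5a, Eif5a2 and Eif5b all had both rFGF1WT libraries above both HG libraries, as 24.1% of all loci did, and only Eif5a was called. With rFGF1ΔHBS only 1 of these 4 loci, Eif5a, lay above HG without overlap, beside 24.4% of all loci. Eif5a, a hypusine-carrying factor that now counts mainly as an elongation factor (chr11:69916714-69921958, minus strand), read 68.9 and 62.6 FPKM in HG, 91.4 and 85.4 FPKM with rFGF1WT, and 83.7 and 86.4 FPKM with rFGF1ΔHBS. It rose by 0.42 ± 0.07 (SE, n = 2, adjusted p = 0.0485 by limma) with rFGF1WT and differed by 0.37 ± 0.07 (adjusted p = 0.0620 by limma) with rFGF1ΔHBS. The difference between the proteins was -0.05 with a 95% interval of -0.24 to 0.13. Eif5, the GTPase activator of eIF2, read 24.3 and 23.98 FPKM in HG, 26.9 and 28.5 FPKM with rFGF1WT, and 26.9 and 24.2 FPKM with rFGF1ΔHBS, overlapping HG with the mutant. Eif5a2 and Eif5b, the GTPase of subunit joining, differed by 0.17 ± 0.08 and 0.11 ± 0.07 with rFGF1WT. Eif6, which keeps the large subunit from joining early, read 20.4 and 18.6 FPKM in HG and 19.98 to 21.7 FPKM with FGF1.

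**Figure D4:**
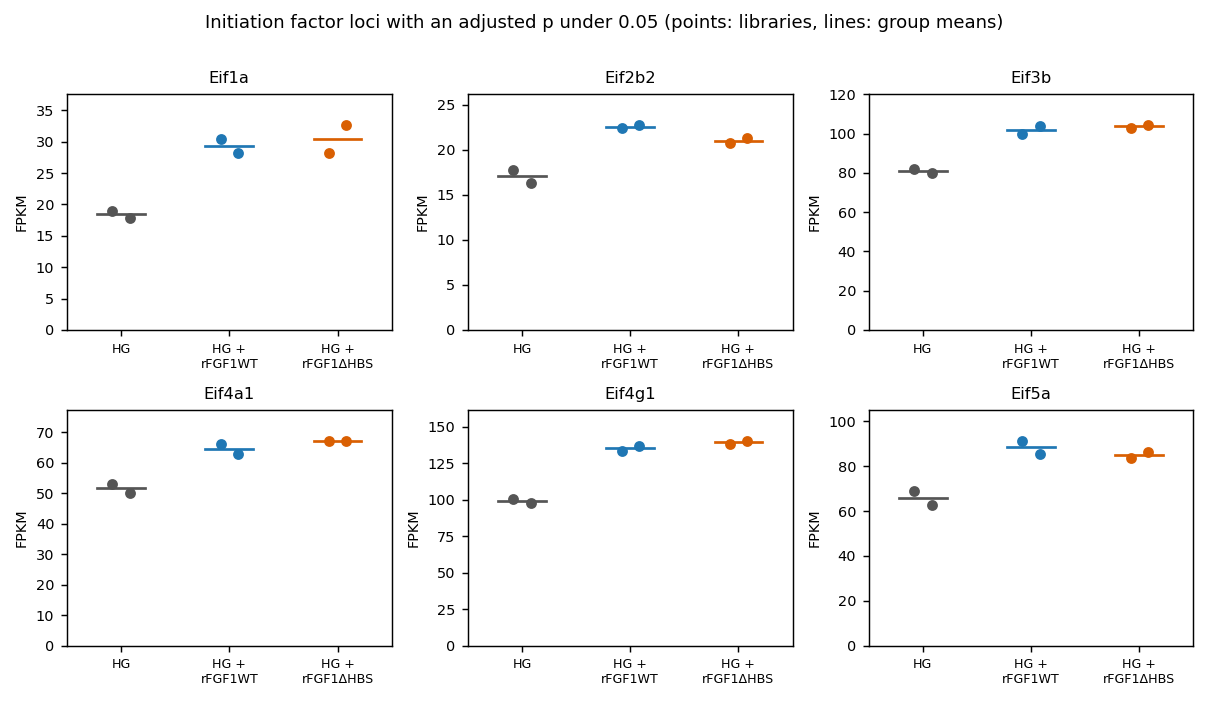
FPKM (from 0) by library (points) and group mean (lines) for the 6 initiation factor loci with an adjusted p under 0.05 in either comparison. In each panel all 4 FGF1 libraries lie above both HG libraries, as for Eif4g1 with 133.4 to 140.3 FPKM against 97.8 and 100.4 FPKM.

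Regulators of the same step were read from a list of 35 names (mTOR complex, kinases, poly(A)-binding and recycling proteins), of which 34 matched a locus and were tested. The unmatched name was Dap5, an alias of the member Eif4g2. With rFGF1WT 1 rose and 3 fell, and with rFGF1ΔHBS 1 rose and 2 fell, which is 11.8% and 8.82% of the list beside 6.19% and 6.26% of all loci. Pdcd4, an inhibitor that binds eIF4A, read 23.9 and 25.6 FPKM in HG, 10.8 and 14.5 FPKM with rFGF1WT, and 12.9 and 12.5 FPKM with rFGF1ΔHBS. It fell by 0.93 ± 0.15 (SE, n = 2, adjusted p = 0.0443 by limma) and by 0.91 ± 0.15 (SE, n = 2, adjusted p = 0.0455 by limma), the largest called changes among the members and the listed genes. Both Pdcd4 calls were lost under median-ratio scaling. Deptor, an inhibitor within the mTOR complexes, read 4.14 and 4.19 FPKM in HG, 2.10 and 2.38 FPKM with rFGF1WT, and 2.34 and 2.37 FPKM with rFGF1ΔHBS, and fell by 0.67 ± 0.08 and by 0.62 ± 0.08 (adjusted p = 0.0235 and 0.0271 by limma). Both inhibitors were lower in all 4 FGF1 libraries than in HG.

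Mknk1, a kinase that phosphorylates eIF4E on eIF4G, read 6.39 and 6.48 FPKM in HG, 4.61 and 4.79 FPKM with rFGF1WT, and 5.05 and 5.03 FPKM with rFGF1ΔHBS. It fell by 0.38 ± 0.06 (adjusted p = 0.0403 by limma) with rFGF1WT and differed by -0.30 ± 0.06 (adjusted p = 0.0620 by limma) with rFGF1ΔHBS. The Mknk1 call was lost under median-ratio scaling, quantile normalization and a filter at 5 FPKM. The related kinase gene Mknk2 was more abundant, at 79.1 and 91.1 FPKM in HG and 64.9 to 75.2 FPKM with FGF1. Mknk2 was not called with rFGF1WT or rFGF1ΔHBS (adjusted p = 0.310 and 0.148 by limma). Abce1, the ATPase that recycles ribosomes, read 25.5 and 26.0 FPKM in HG, 34.8 and 35.7 FPKM with rFGF1WT, and 36.9 and 35.6 FPKM with rFGF1ΔHBS, and rose by 0.44 ± 0.05 and 0.48 ± 0.05 (adjusted p = 0.0217 and 0.0201 by limma). No regulator was called between the proteins.

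Among 10 elongation and termination genes tested, 1 was called with each protein, where 6.19% and 6.26% of all loci were. Eef2k, the kinase that inhibits elongation factor 2, read 8.47 and 8.21 FPKM in HG, 4.98 and 5.06 FPKM with rFGF1WT, and 4.58 and 4.63 FPKM with rFGF1ΔHBS. It fell by 0.63 ± 0.06 and by 0.74 ± 0.06 (SE, n = 2, adjusted p = 0.0159 and 0.0140 by limma), and the groups were well apart. Of 77 cytoplasmic ribosomal protein loci, 0 were called by limma in any comparison, with 9, 7 and 7 at an unadjusted p under 0.05 for rFGF1WT against HG, rFGF1ΔHBS against HG and rFGF1ΔHBS against rFGF1WT. These are 11.7%, 9.09% and 9.09% of the 77, beside 24.8%, 24.9% and 4.87% of all loci. The median differences of the ribosomal protein loci were -0.03, -0.11 and -0.08, where all loci had -0.04, -0.04 and 0.005. In the same order, 45, 65 and 62 of the 77 had a fitted difference below 0. Of all 10562 loci, 5941, 5871 and 5067 did.

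**Figure D5:**
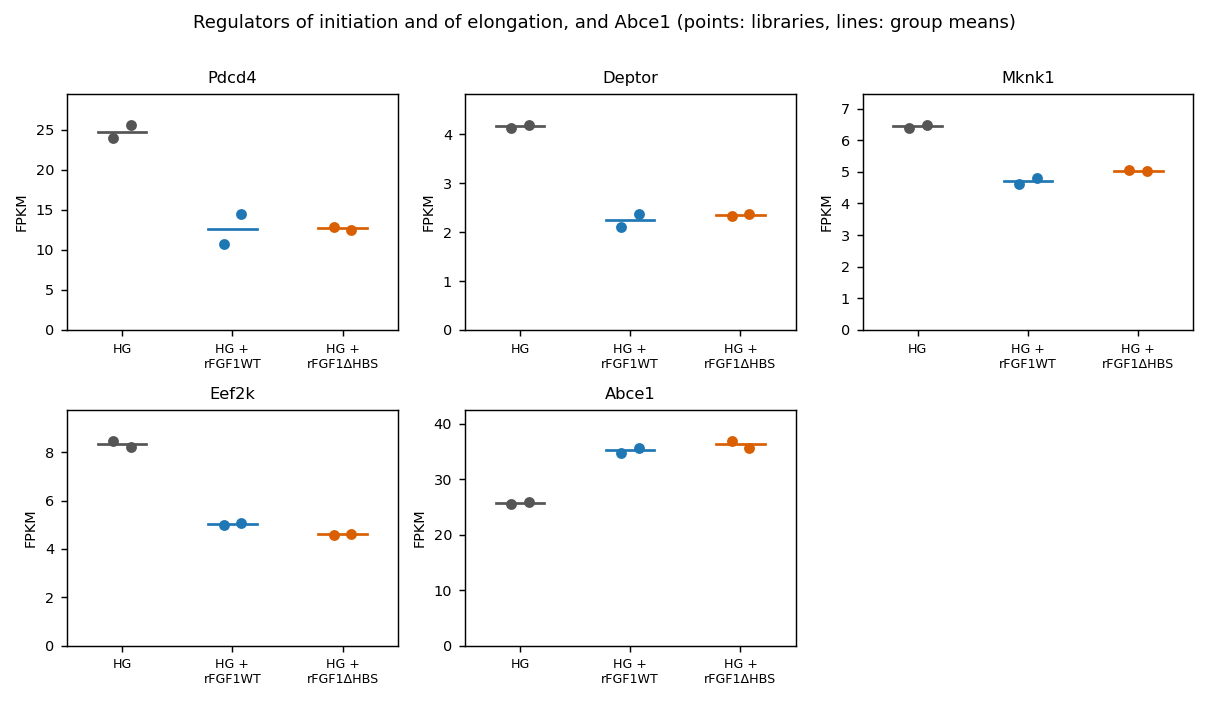
FPKM by library (points) and group mean (lines) for the called genes of the regulator and elongation lists. Pdcd4, Deptor, Mknk1 and Eef2k are lower, and Abce1 higher, in all 4 FGF1 libraries than in the 2 HG libraries (Eef2k 4.58 to 5.06 FPKM against 8.21 and 8.47 FPKM).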

How the data were processed

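RNA sequencing of MPCs gave 6 poly(A) libraries in 3 groups of 2. The authors deposited 1 table of FPKM per assembled locus, and their methods used edgeR to summarize FPKM values. Per the labels, the submitters' processing notes name HISAT2 2.0, StringTie 1.3.0, Bowtie 0.12.2 and the build mm8, with no role or order. The deposited FPKM values hold no counts, and absolute depth is not known. At low single-transcript loci the most common ratio of values put relative depth at 0.973 to 1.01 times that of the first HG library. No per-sample column was left unmapped. The genome build behind the loci was not settled. Of the 322 Ensembl transcript names at the member loci, 269 were found under a member gene in GENCODE M21 (GRCm38). Positions were taken from that release.

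Loci with a mean of at least 1 FPKM (10562) were tested as log2(FPKM + 1), pseudocount 1, with limma 3.58.1 (R 4.3.3), a means model over all 6 libraries with 3 residual degrees of freedom, trended empirical Bayes and Benjamini-Hochberg adjustment. Fold changes on this scale understate changes of low genes. An exact permutation of 2 against 2 cannot go below p = 0.333 and was not used. The fit was tested on simulated data. Figures used Python 3.11.15 and matplotlib 3.10.9. Near-identical copies were sought as 75-base words of a member's longest matched transcript found in transcripts of other genes. Named genes were members with an adjusted p under 0.05 in any comparison, all loci of a symbol so named, Eif4g1 and the most abundant locus of each complex. Others are given by range and count, and the remaining members named were chosen after their values were seen. From the lists of regulators and of elongation and termination genes, genes past the threshold were named, and Mknk2 was added beside Mknk1 after its values were seen. The members and lists were chosen with earlier results of these data known. Replicate numbers did not pair the libraries (correlations of deviations -0.02, 0.10 and -0.05). Alternatives are given under the dependence on processing. One marker gene is not reported here.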

Additional observations from a re-analysis of the deposited data

How the results depend on the processing

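Of the single-gene values recomputed under the alternatives, 2523 kept their side of the threshold without changing sign by more than their standard error. Another 187 kept their direction but lost the call, among them the called values that did not reach the 2-fold limit. A further 8 passed the threshold newly. The other 33 were called neither before nor after and changed sign by more than their standard error. None of the called values reversed. The 6 members called with rFGF1WT and the 4 with rFGF1ΔHBS each became 0 with a 2-fold limit, 1 with no filter on low values (Eif4g1 in both), 0 when only the 4 libraries compared were fitted, and 0 with the replicate number as a block, under which the all-locus counts fell from 654, 661 and 58 to 41, 39 and 6. The numbers did not pair the libraries, so that last loss is not read as a weaker effect. With 1 library left out, every member call against HG was lost, except Eif4g1 with rFGF1ΔHBS without the first rFGF1WT library. Eif4ebp2 passed newly against HG with both proteins without the second HG library. Eif2s3x passed newly with rFGF1WT against HG and between the proteins, without the first rFGF1WT library. A filter at 5 FPKM and median-ratio scaling each gave 7 and 5 members called, with Eif2s1 gained in both comparisons. Quantile normalization gave 4 and 3, with Eif3b lost from both and Eif2b2 from rFGF1WT, and robust empirical Bayes gave 5 and 4, with Eif4a1 lost from rFGF1WT. A median-ratio scaling moved the members' median difference from 0.0381 to 0.0841 with rFGF1WT, from 0.0333 to 0.0763 with rFGF1ΔHBS and from -0.0330 to -0.0410 between the proteins, and quantile normalization moved the last to -0.00777. The median over all loci moved likewise under median-ratio scaling, from -0.0402 to 0.00622 with rFGF1WT and from -0.0358 to 0.00114 with rFGF1ΔHBS. Leaving out 1 library gave medians of 0.00504 to 0.0352 for rFGF1ΔHBS against HG and -0.0330 to -0.00183 between the proteins. All calls of Pdcd4, Deptor, Mknk1, Abce1 and Eef2k were lost under the block and without either HG library, and those of Pdcd4, Deptor and Mknk1 also with no filter. Adding the near-identical copies, an alternative chosen after seeing the data, left 5 and 3 members called, Eif4a1 being lost from both. The cause of these changes was not tested, except that fewer libraries leave fewer degrees of freedom. With 2 libraries a group, what passed depended on each locus's spread, as Eif4a1 was called at 0.32 with rFGF1WT and Eif4ebp1 was not at 0.57.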
